A study of Arabidopsis thaliana with 12 samples.

Results

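Rosette leaves of plants that had stood in a chamber ventilated with clean air were compared with leaves of plants kept outside that chamber. The comparison rests on 6 of the 12 arrays of the series, 3 titled as air and 3 titled as non-treatment, and the labels alone chose them. All plants were wild-type Arabidopsis thaliana of the ecotype Columbia, 7 weeks old, raised for 3 weeks on agar and 4 weeks in soil. Every plant then spent 72 h in constant light at 24 °C, followed by 150 min of treatment at that temperature. Outside plants stayed in the acclimation conditions, in air with less than 0.08 ppm formaldehyde. Clean-air plants stood together in a closed chamber of 10 L that was ventilated at 200 ml per min with gas holding less than 0.04 ppm formaldehyde, at a humidity of 50 to 60%. The 6 other plants were treated in the same kind of chamber. Of these, 3 were at low exposure (1 to 2 ppm formaldehyde) and 3 at high exposure (14 to 16 ppm). In this comparison they counted only in the filter on levels and in the estimate of the spread. Their own differences from outside are given further below.

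All plants were intact and carried no transgene, and about 100 mg of leaf was taken from each, so 1 array stands for 1 plant, and plants are numbered within their group as in the titles. The 3 clean-air plants shared 1 chamber run. Enclosure, air flow, humidity, residual formaldehyde and run therefore cannot be told apart, and the p-values measure the spread between plants within a group. In whole leaf, fewer cells of a type and less RNA per cell cannot be told apart either.

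Leaves sense touch, moving air, humidity and carbon dioxide, and many transcripts for cell wall enzymes, calcium-binding proteins and defence receptors are known to respond to such cues within hours. Cell-surface receptor kinases and the cytoplasmic kinases they act through report microbes and damage to the cell. Ribosomes are assembled in the nucleolus, where RNA polymerase I transcribes the ribosomal RNA precursor and a large group of processing factors, helicases and methyltransferases cuts, folds and modifies it. These genes are known to be switched together with sugar supply and growth.

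Levels are log2 GCRMA values (background-corrected, normalized microarray signals), and a difference of 1 is a 2-fold change. A probe set, the array's group of probes for a transcript, was tested if it exceeded 4 on at least 3 of the 12 arrays, and it counts as called where limma gave it a p under 0.05 after Benjamini-Hochberg adjustment. Of 13874 tested probe sets 422 were called (3.04%). Of these, 236 were higher in clean air (1.7%) and 186 were lower (1.34%), so 55.9% of the calls were rises. The call and a change of at least 2-fold came together for 263 probe sets (1.9%), 134 rises and 129 falls. An unadjusted p under 0.05 was found for 2772 probe sets. The median difference over all tested probe sets was 0.02. In all 422 called probe sets the 3 values of one group lay above the 3 of the other, which also held for 3547 of all tested ones (25.6%).

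Outside levels were lower for the rises than for the falls. Part of this is fixed in advance, since probe sets were sorted by their difference from outside. Called rises had a median of 6.17 outside and 7.26 in clean air, called falls a median of 8.45 outside and 7.14 in clean air, and all tested probe sets a median of 7.89 outside. The median difference of the rises was 1.07 and that of the falls −1.44. A further 541 probe sets differed by at least 1 without being called, and in 312 of them the groups did not overlap. The number of calls depended on single plants. It was 88 without clean-air plant 1, 65 without clean-air plant 2, 162 without outside plant 2 and 243 without outside plant 3. The share of rises was 40.9%, 41.5%, 45.1% and 62.6% in these fits, and 68.4% when arrays were scaled to the spike-in controls. With the 6 arrays fitted alone 103 probe sets were called, 38.8% of them rises, and in every fit that left out 1 of the 12 arrays the same 51 probe sets were called. Of 87 called probe sets that are named or listed here, 27 were called with the 6 arrays alone and 44 with no filter on low values.

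**Figure D1:**
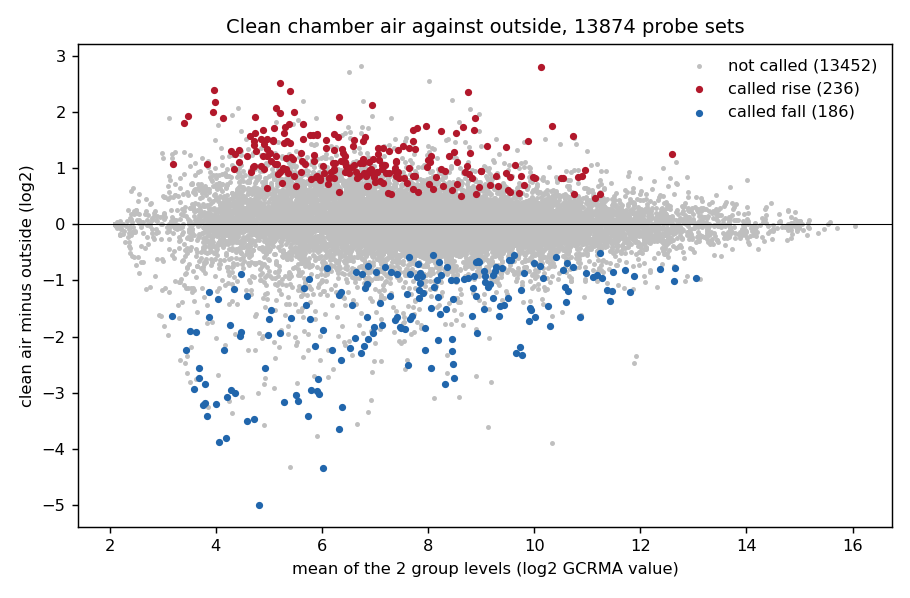
Difference between clean air and outside (log2, y axis) against the mean of the 2 group levels (log2 GCRMA value, x axis) for 13874 tested probe sets, each a point. Called rises (236, red) lie mostly at middle and low levels, and called falls (186, blue) reach further from 0.

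**Figure D2:**
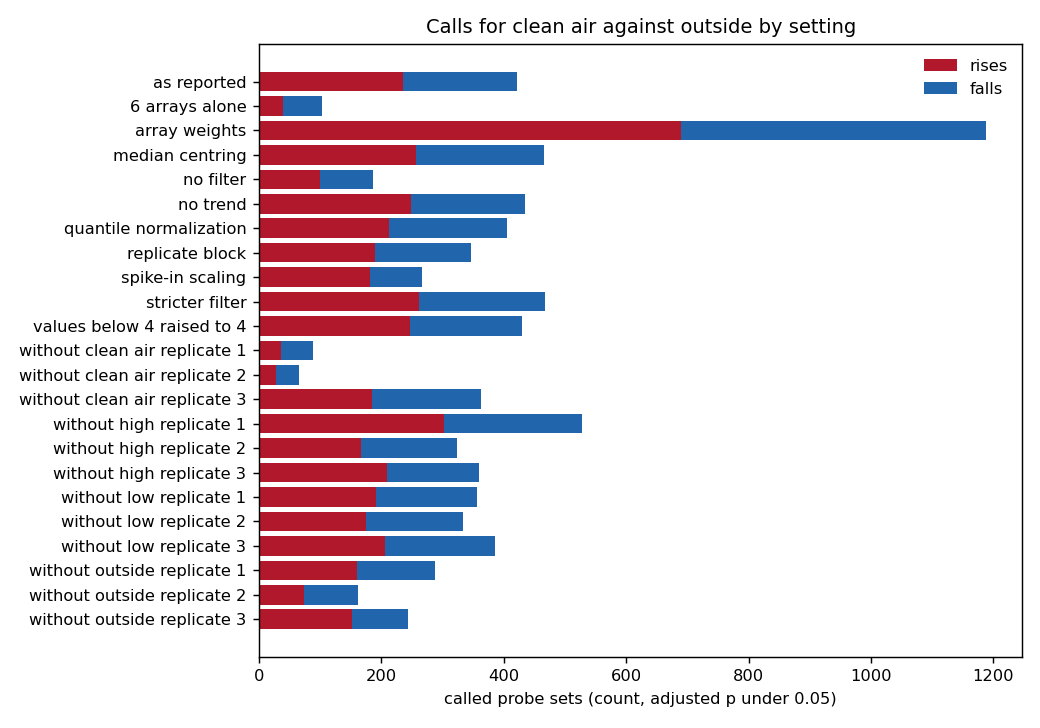
Number of called probe sets (x axis) under the reported fit and each alternative (y axis), split into rises (red) and falls (blue). The count runs from 65 without clean-air plant 2 to 1188 with array weights.

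The arrays of the comparison were closely correlated. Pearson correlations over the tested probe sets were 0.957 to 0.975 among outside arrays, 0.956 to 0.978 among clean-air arrays and 0.934 to 0.966 between the groups. Replicate 2 of outside stood farthest from the clean-air arrays, at 0.934 to 0.950. The median SD within a group was 0.235 outside and 0.202 in clean air. The 3' minus 5' signal of control transcripts, which rises as RNA degrades, was 1.12 ± 0.04 outside and 1.21 ± 0.05 in clean air (SD, n = 3, two-sided exact permutation p = 0.1, the smallest that 3 against 3 allows). The bioB spike-in control averaged 7.16 ± 0.13 outside and 6.75 ± 0.22 in clean air (exact permutation p = 0.1), and bioC 6.99 ± 0.21 and 6.53 ± 0.26 (exact permutation p = 0.1). The spike-in scaling given above used the controls bioB, bioD and cre. It used neither bioC nor the 3' minus 5' signal, whose part in the calls was not tested. The labelled tissue was checked through marker genes. PRK (phosphoribulokinase) lay between 13.54 and 13.69 outside and between 13.66 and 13.87 in clean air. The 3 tested mesophyll markers (SBPASE, RCA and PRK) differed by −0.17 to 0.14 and none was called. The guard cell gene FMA differed by 0.52, the trichome gene TRY by −0.43 and the phloem gene SWEET11 by 0.09, none of them called. AUR1, a kinase of dividing cells, was at or below 3.80 on all 6 arrays, and of the root markers 2 had a named probe set and none was tested.

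The largest rises among named genes with both group means above 4 included genes of ribosomal RNA processing and of organelles. AT3G06530, whose yeast relative Utp10 is part of the complex that processes the small-subunit ribosomal RNA, read 4.58, 2.79 and 4.93 outside and 6.64, 5.90 and 5.96 in clean air. It rose by 2.07 ± 0.47 (log2, SE; adjusted p = 0.0407), or 1.67 with values below 4 raised to 4, and the low value of outside plant 2 carried part of this, since the difference was 1.41 without it. PPR596, a mitochondrial protein of the pentatricopeptide family, whose members bind organelle RNA, read 5.44, 5.08 and 5.59 outside and 7.27, 7.38 and 7.19 in clean air, with narrow and separate groups (1.91 ± 0.29, adjusted p = 0.0105). AT1G08610, another pentatricopeptide protein, rose by 1.80 ± 0.32 (adjusted p = 0.0168). AT3G55605, of the mitochondrial glycoprotein family, read 4.81, 4.67 and 4.75 outside and 6.61, 6.67 and 6.32 in clean air, again with little spread (1.79 ± 0.22, adjusted p = 0.00474). AT1G06720, the relative of the yeast ribosome-assembly GTPase Bms1, rose by 1.71 ± 0.40 (adjusted p = 0.0466), and AAE16, an acyl-activating enzyme, by 1.69 ± 0.26 (adjusted p = 0.0108).

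The remaining rises of that ranking were different in kind. AT4G27280, an EF-hand calcium-binding protein, read 9.54, 9.83 and 9.04 outside and 11.48, 10.14 and 12.03 in clean air. It rose by 1.75 ± 0.39 (adjusted p = 0.037), and clean-air plant 2 lay only just above the outside plants. AT1G72920, which carries the Toll-like and nucleotide-binding domains of resistance proteins, rose by 1.73 ± 0.41 (adjusted p = 0.0496). AT4G09890 rose by 1.76 ± 0.34 and AT1G13810 by 1.73 ± 0.37. Among these 10 genes the calls of AT3G55605 and AAE16 held in all 12 fits that left out 1 array. That of PPR596 was lost without clean-air plant 2 and that of AT1G08610 without clean-air plant 1 or 2. AT3G06530 and AT1G06720 were called only without high-exposure plant 1 or outside plant 3, AT1G72920 only without high-exposure plant 1 or low-exposure plant 3, and AT4G27280 only without clean-air plant 2 or low-exposure plant 1 or high-exposure plant 1. AT4G09890 lost its call without any 1 clean-air plant or without outside plant 1 or 2, and AT1G13810 in those fits and without low-exposure plant 2 or high-exposure plant 2. With spike-in scaling AT3G06530, AT1G06720 and AT1G72920 were not called.

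**Figure D3:**
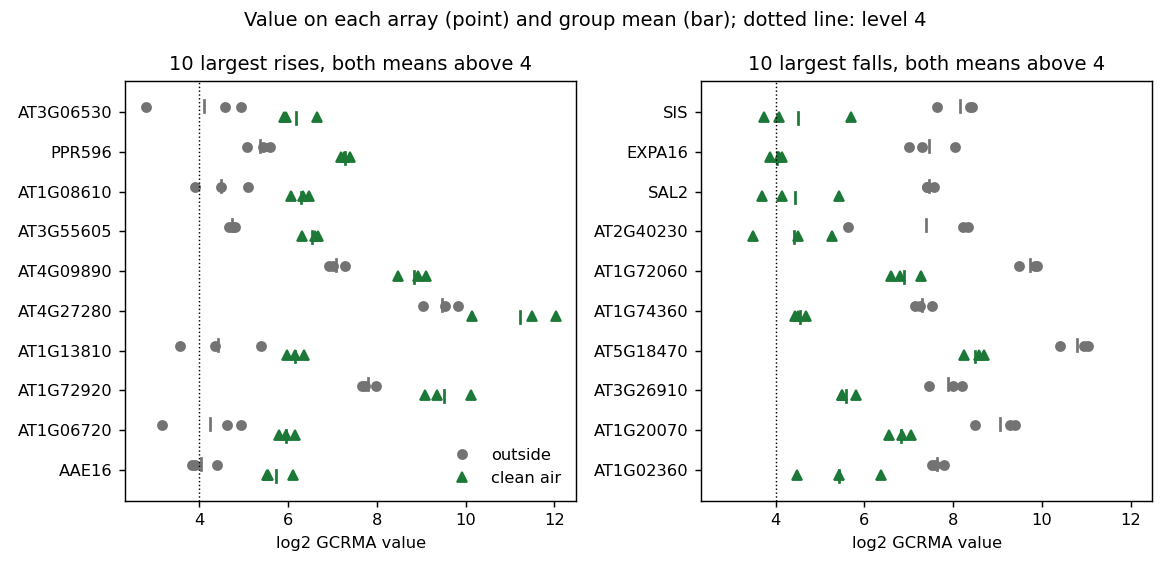
Values on each array (log2 GCRMA value, x axis) of the 10 named genes with the largest rises (left) and the 10 with the largest falls (right), among genes with both group means above 4. Circles are outside plants, triangles clean-air plants and short bars group means, and the dotted line marks the level 4. No gene shown has overlapping groups, and outside values of AT3G06530 spread from 2.79 to 4.93.

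Some named genes rose from at or below 4 on all outside arrays to above 4 on all clean-air arrays, and their fold change is a lower bound from the level 4. AT4G04940, the relative of the yeast processing factor Utp21, read 3.80, 3.59 and 3.94 outside and 5.84, 5.68 and 5.55 in clean air, at least 3.22-fold higher (adjusted p = 0.012). AT4G26600, a ribosomal RNA methyltransferase known as NOP2B, read between 2.40 and 3.12 outside and 5.33, 4.90 and 5.29 in clean air, at least 2.25-fold higher (adjusted p = 0.00351). AT4G04670 was at least 2.30-fold and AT3G59670 at least 2.13-fold higher, and AT3G52170 rose from 3.42, 2.38 and 2.87 to 4.66, 4.94 and 5.61 (adjusted p = 0.0108). In all, 36 probe sets were at or below 4 on all outside arrays and above 4 on all clean-air arrays. The exposure arrays had no part in this rule. Of the 36, 11 were called. The rule itself picks groups that do not overlap, so nothing is read from that share beside the 3.04% called among all tested probe sets. The calls of AT4G26600, AT3G59670 and AT3G52170 held whichever array was left out, that of AT4G04940 was lost without clean-air plant 1 or 2, and that of AT4G04670 without any 1 of the 6 arrays compared. With values below 4 raised to 4, AT3G52170 was no longer called.

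Because several leading rises concern ribosome assembly, genes of that function were gathered in 1 list of 96 loci, for RNA polymerase I and for factors that process ribosomal RNA and assemble ribosomes. The list was written after the values were seen, partly from called genes, so its counts are a description and are not evidence that the function changed. A shorter list of ribosome biogenesis genes drawn up earlier had no named probe set. Of the 96 loci 63 had a named probe set, and 62 probe sets of 61 genes were tested. There were 33 rises and no fall, so 53.2% of the probe sets were called, beside 1.7% called as rises among all tested. As the list was partly drawn from called genes, nothing is read from that share. The median difference was 0.95, or 0.94 with values below 4 raised to 4, beside 0.02 over all tested probe sets. A positive difference was found for 61 of the 62, beside 52.6% of all tested probe sets. Only DIM1A, a ribosomal RNA dimethylase, was lower (−0.51, adjusted p = 0.192).

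The median level of the list was 5.87, 5.35 and 6.01 on the outside arrays and 6.77, 6.52 and 6.58 on the clean-air arrays. The clean-air arrays were all above the outside arrays, and outside plant 2 was the lowest. The list's median was 7.45 to 7.75 at low exposure and 7.61 to 8.00 at high exposure, while the median of all tested probe sets lay between 7.84 and 7.94 on every array. The number of called probe sets of the list was 7 with the 6 arrays alone, 4 without clean-air plant 1, 4 without clean-air plant 2, 13 without outside plant 2, 17 without outside plant 1 and 16 with no filter. The difference stayed positive for 61 of 62 in all of these fits. The fits of the 6 arrays alone and with no filter use the same group means, so no sign could change there. Groups did not overlap for 56 of the 62, beside 25.6% of all tested probe sets. Leaving out 1 array cannot turn the sign of those 56, so nothing is read from the constant count.

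**Figure D4:**
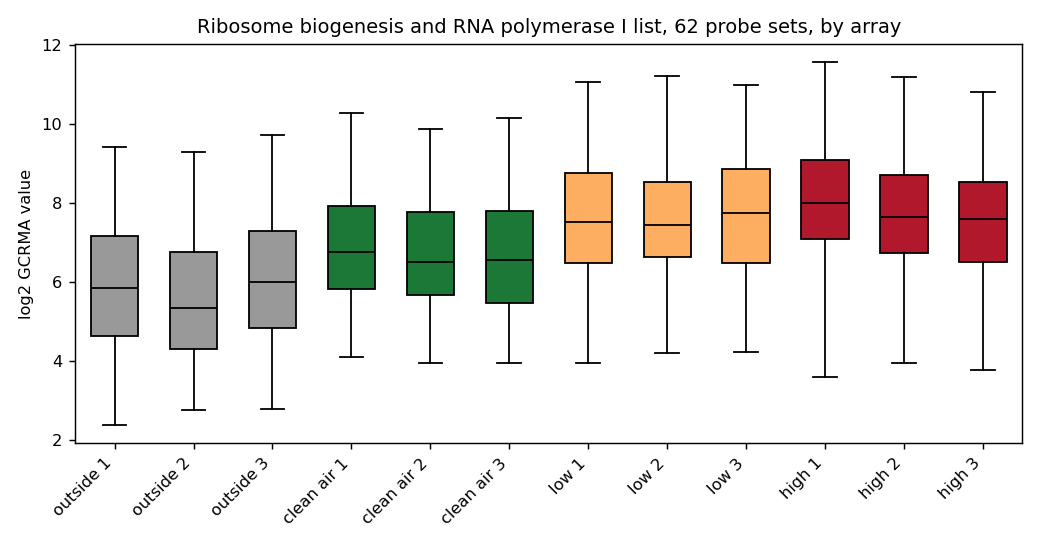
Levels (log2 GCRMA value, y axis) of the 62 tested probe sets of the ribosome biogenesis and RNA polymerase I list on each of the 12 arrays (x axis). Boxes span the quartiles with the median as a line, and whiskers reach the lowest and highest values. The medians are 5.35 to 6.01 outside and 6.52 to 6.77 in clean air. The list was written after values were seen.

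Within the polymerase, NRPA1 and NRPA2, its 2 largest subunits, both rose. NRPA1 read 4.26, 3.62 and 4.44 outside and 5.44, 5.33 and 5.45 in clean air (1.30 ± 0.24, adjusted p = 0.0187). NRPA2 rose by 1.09 ± 0.21 (adjusted p = 0.0215), and AT3G13940, the relative of the yeast subunit Rpa49, by 0.98 ± 0.20 (adjusted p = 0.0303). All 3 lost their calls without clean-air plant 1 or without clean-air plant 2. Those of NRPA2 and AT3G13940 were also lost without outside plant 2, that of NRPA2 without outside plant 1 and that of AT3G13940 without clean-air plant 3.

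Factors for the small subunit included relatives of yeast Utp7, Nop14, Mpp10 and Imp3. AT3G10530 (Utp7) read 5.12, 5.36 and 6.05 outside and 7.40, 6.90 and 6.94 in clean air, a rise of 1.56 ± 0.26 (adjusted p = 0.0144). AT1G69070 (Nop14) rose by 1.58 ± 0.27, AT5G15750 (Imp3) by 1.14 ± 0.18 and AT5G66540 (Mpp10) by 0.99 ± 0.19. The core protein AT3G05060, of the Nop58 type, rose by 0.93 ± 0.18. IMP4, which in yeast acts beside Imp3 and Mpp10, was 0.52 higher without being called (adjusted p = 0.27). Each of the 5 calls was lost without clean-air plant 1 or without clean-air plant 2, those of AT5G66540 and AT3G05060 also without outside plant 2, that of AT3G05060 also without outside plant 1 and that of AT5G66540 also without outside plant 3. AT3G05060 was not called with spike-in scaling.

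Several factors for the large subunit were called and others were not. RBL (REBELOTE), of the Noc2 family, had the largest difference of the list. It read 4.17, 3.04 and 4.62 outside and 6.90, 6.47 and 6.01 in clean air, with all clean-air plants well above all outside plants (2.52 ± 0.35, adjusted p = 0.00763), or 2.20 with values below 4 raised to 4. AT1G79150, the relative of yeast Noc3, was measured by a pair of probe sets. One was below 4 on all outside arrays and at least 1.92-fold higher in clean air (adjusted p = 0.00763), and the other rose by 1.62 ± 0.34 (adjusted p = 0.031), or 1.31 with values below 4 raised to 4. AT2G18220, also of the Noc2 family, was at least 1.94-fold higher. AT1G52930 (Brx1 type) rose by 1.30 ± 0.23, AT2G40360 (Bop1 type) by 0.99 ± 0.23 and AT2G37990 (Rrs1 type) by 0.86 ± 0.15. Not called were AT3G15460, another Brx1-type gene (1.18, adjusted p = 0.0532), AT5G15550 (0.60, adjusted p = 0.0985) and AT5G14520 (0.55, adjusted p = 0.212). RBL and the first AT1G79150 probe set kept their calls whichever array was left out, but that probe set and AT2G18220 were not called with values below 4 raised to 4. The other 5 probe sets lost theirs without clean-air plant 1 or without clean-air plant 2. All of those but AT2G37990 also lost it without outside plant 2, and AT2G18220, AT2G40360 and the second AT1G79150 probe set without outside plant 1. With spike-in scaling AT2G40360 was not called, and among leave-out fits it was called only without outside plant 3 or high-exposure plant 1 or 3.

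Some DEAD-box RNA helicases and a further methyltransferase of the list rose. AT2G40700, a helicase, read 4.17, 4.26 and 4.17 outside and 5.25, 5.15 and 5.30 in clean air, among the most uniform values in the list (1.03 ± 0.16, adjusted p = 0.00971). AT3G18600 rose by 1.36 ± 0.27, AT5G54910 by 1.35 ± 0.25 and AT3G16840 by 0.84 ± 0.19, all helicases. AT4G25730, of the Spb1 methyltransferase type, rose by 1.05 ± 0.18. The helicase AT1G77030 differed by 0.07 (adjusted p = 0.881), and DIM1A was the lower gene named above. The call of AT2G40700 held in all 12 fits, and those of the other 4 were lost without clean-air plant 1 or without clean-air plant 2. Those of AT3G18600, AT5G54910 and AT3G16840 were also lost without outside plant 2, those of AT3G18600 and AT3G16840 without outside plant 1 or clean-air plant 3, and AT3G16840 was called only without high-exposure plant 1 or 3.

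Beyond ribosomes, several regulators and metabolic genes rose. DEWAX (AT5G61590), a transcription factor that represses wax synthesis, read 9.99, 9.78 and 10.09 outside and 11.65, 11.71 and 11.21 in clean air (1.57 ± 0.26, adjusted p = 0.0142). BIC2 (AT3G44450), an inhibitor of the blue-light receptor cryptochrome, rose by 1.39 ± 0.20 (adjusted p = 0.00799). Both were chosen after their values were seen. MYC4, a jasmonate-response factor, rose by 1.27 ± 0.27 (adjusted p = 0.0303). It was the single call among 6 tested members of the jasmonate list, of which JAL34 and JAL23 are jacalin-related lectins. APL3, a subunit of the enzyme that makes ADP-glucose for starch, read 7.68, 7.81 and 7.87 outside and 9.02, 8.68 and 9.31 in clean air. It rose by 1.22 ± 0.17 (adjusted p = 0.00763), the single call among 5 tested starch genes.

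Other lists held single rises too. Beside the 3.04% called among all tested probe sets, 1 call in lists this short, the jasmonate and starch lists included, says nothing about the list as a whole. BZIP53, a factor of the sugar-starvation response, rose by 0.84 ± 0.12 (adjusted p = 0.00971, 1 of 9 tested). CML23, a calmodulin-like calcium sensor, rose by 1.61 ± 0.34 (adjusted p = 0.0303, 1 of 6). AOP1, a dioxygenase related to enzymes of glucosinolate synthesis, rose by 1.56 ± 0.26 (adjusted p = 0.0141, 1 of 7). In the abscisic acid, drought and cold list the single rise of 7 was PYRB (0.61 ± 0.12, adjusted p = 0.028), an enzyme of pyrimidine synthesis that the list's symbol stem took in and that has no known part in abscisic acid signalling. Of the pentatricopeptide list, matched by symbol, PPR596 and PPR336 (0.91 ± 0.16) were called, and the other tested member, COS1, is not of that family. AT1G08610 above is of the family but was not matched by symbol. BIC2 and APL3 kept their calls in all 12 fits. DEWAX and AOP1 lost theirs without clean-air plant 1 or 2 and BZIP53 without clean-air plant 2. PPR336 lost its call without clean-air plant 1 or 2 or outside plant 2. MYC4 and CML23 lost theirs without any 1 clean-air plant or outside plant 2, MYC4 also without outside plant 1 and CML23 also without outside plant 3, and PYRB without any 1 outside plant or clean-air plant 1 or 2. With spike-in scaling CML23 and PYRB were not called.

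The falls had a larger median difference than the rises. SIS, a salt-induced serine-rich protein, read 8.42, 8.37 and 7.65 outside and 3.73, 4.08 and 5.69 in clean air. It fell by 3.64 on the log2 scale (SE 0.48, adjusted p = 0.00621), with a difference of −3.55 after values below 4 were raised to 4, and clean-air plant 3 was the least reduced. EXPA16, an expansin that loosens cell walls, read 7.29, 7.01 and 8.05 outside and 3.88, 4.08 and 4.15 in clean air, a difference of −3.41 ± 0.30 (adjusted p = 0.000721). It was the single call among 16 tested wall-loosening genes, whose median difference was −0.28. AT1G74360, a leucine-rich repeat receptor kinase known as NILR1 that takes part in the response to nematodes, read 7.53, 7.14 and 7.24 outside and 4.50, 4.44 and 4.69 in clean air (−2.76 ± 0.41, adjusted p = 0.00971).

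AT3G26910, of the hydroxyproline-rich glycoprotein family, read 8.19, 7.46 and 7.99 outside and 5.49, 5.49 and 5.80 in clean air (−2.29 ± 0.25, adjusted p = 0.00314). AT5G18470, a mannose-binding lectin, was abundant in both groups, at 10.41, 10.95 and 11.04 outside and 8.58, 8.23 and 8.69 in clean air (−2.30 ± 0.37, adjusted p = 0.0124). SAL2, a phosphatase of inositol phosphates and bisphosphate nucleotides, fell by 3.03 (SE 0.67, adjusted p = 0.0367). AT2G40230, an acyltransferase, fell by 2.97 (SE 0.66, adjusted p = 0.0378), and its outside plant 1, at 5.63, lay close to the clean-air plants. AT1G72060, a protease inhibitor, fell by 2.84, AT1G20070 by 2.23 and AT1G02360, of the chitinase family, by 2.21. SIS, EXPA16, AT1G74360 and AT3G26910 were called in all 12 fits. AT5G18470 lost its call without clean-air plant 2, AT1G72060 without clean-air plant 1 or 2, and AT1G20070 without any 1 clean-air plant or outside plant 1 or 2. AT1G02360 lost it without any 1 outside plant or clean-air plant 2 or 3. SAL2 was not called with spike-in scaling, and of the 12 fits it was called only in those without plant 1 or 2 of either exposure group, and AT2G40230 only without outside plant 1 (−3.85), low-exposure plant 3 or high-exposure plant 1.

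Other genes fell to at or below 4 on all clean-air arrays. AT4G12490 (AZI3), of the lipid-transfer protein family, read 7.24, 7.07 and 7.66 outside and 2.11, 2.44 and 2.43 in clean air, close to the lowest value of the data. It was at least 10.0-fold lower (adjusted p = 0.000721), and its call held under every alternative. AT4G28140, an AP2/ERF transcription factor, read 4.45, 7.44 and 4.75 outside and 2.11 to 2.14 in clean air, at least 2.92-fold lower. Replicate 2 of outside was far above the other outside plants, and the 2 others, at 4.45 and 4.75, were not far above 4. B120, a receptor kinase of the S-locus lectin type, was at least 2.74-fold lower, AT2G42360, a RING-type ubiquitin ligase, at least 2.62-fold and AT5G53750, a CBS-domain protein, at least 2.41-fold. In all, 33 probe sets were above 4 on all outside arrays and at or below 4 on all clean-air arrays, whatever their exposure levels. Of the 33, 21 were called. The rule again picks groups that do not overlap, so nothing is read from that share beside the 3.04% called among all tested probe sets. The calls of the latter 4 genes were lost without clean-air plant 1 or without clean-air plant 2, that of B120 also without outside plant 3 and that of AT2G42360 also without outside plant 2. With values below 4 raised to 4, AT4G28140, AT2G42360 and AT5G53750 were not called.

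Further genes of cell-surface perception and defence were chosen after their values were seen. BIK1, a cytoplasmic kinase that relays signals from pattern receptors, read 9.76, 9.24 and 9.93 outside and 7.96, 7.95 and 8.12 in clean air (−1.63 ± 0.33, adjusted p = 0.026). AT4G08850 (MIK2), a receptor kinase, fell by 1.11 (SE 0.24, adjusted p = 0.0319) and SD1-29 (LORE), the receptor for bacterial hydroxy fatty acids, by 1.22 (SE 0.23, adjusted p = 0.0215). SBT3.3, a subtilase of immune priming, read 4.89, 5.09 and 4.80 outside and 3.76, 3.78 and 3.78 in clean air, at least 1.90-fold lower (adjusted p = 0.00971). GLR2.8, a glutamate-receptor-like channel, read 5.86, 5.16 and 4.19 outside and 2.11 to 2.17 in clean air (adjusted p = 0.00351), while GLR2.7 differed by −0.64 (adjusted p = 0.0986). The list of receptor-like kinases had no named probe set, so how its members as a group moved was not analysed here. The calls of SBT3.3 and GLR2.8 held in all 12 fits, and GLR2.8 was not called with values raised to 4. BIK1, AT4G08850 and SD1-29 lost theirs without clean-air plant 1 or without clean-air plant 2 or without outside plant 3. BIK1 and AT4G08850 also lost it without outside plant 1, SD1-29 without outside plant 2 and AT4G08850 without clean-air plant 3. With spike-in scaling BIK1 and AT4G08850 were not called.

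Transcription factors of the WRKY family act in defence and senescence. The list held 67 loci, of which 6 had a named probe set and 5 were tested. Falls were called for 2 of the 5, beside 1.34% called as falls among all tested probe sets, and rises for none. The median was −1.01, and so few members say nothing about the family as a whole. WRKY47 read 7.50, 7.78 and 8.33 outside and 5.84, 6.10 and 5.17 in clean air (−2.17 ± 0.29, adjusted p = 0.00698). WRKY6 fell by 1.93 (SE 0.33, adjusted p = 0.0152) and was also the single call of 11 tested touch and rapid stress genes, a list with a median of −0.26. Of the salicylic acid and defence list none of 7 was called, and 3 of these, PDF1A, PDF1B and CRK, were taken in by their symbols alone. Its member with the largest difference, GRX480, a glutaredoxin, differed by −2.23 ± 0.91 (adjusted p = 0.204). The call of WRKY47 held in all 12 fits and that of WRKY6 was lost without clean-air plant 1 or 2.

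Among glycosyltransferases of small molecules 1 of 25 tested was called as a rise and 2 as falls, beside 1.7% and 1.34% among all tested probe sets. Their median was −0.01. UGT74D1, which conjugates auxin, rose by 1.38 ± 0.19 (adjusted p = 0.00763). UGT87A2 read 10.10, 9.79 and 10.56 outside and 8.68, 8.62 and 8.23 in clean air (−1.64 ± 0.25, adjusted p = 0.00971), and UGT76C2, which conjugates cytokinin, fell by 2.05 (SE 0.47, adjusted p = 0.0427). IAGLU, an auxin glucosyltransferase chosen after its values were seen, fell by 1.60 (SE 0.30, adjusted p = 0.022). MSRB9, which repairs oxidised methionine, was the single call of 15 antioxidant genes and read 6.36, 7.65 and 6.58 outside and 4.59, 3.63 and 2.90 in clean air (−3.16 ± 0.71, adjusted p = 0.0409). Its clean-air mean lay below 4, and with values below 4 raised to 4 it differed by −2.67 and was not called. HCT, an enzyme of lignin precursors, fell by 0.90 (SE 0.21, adjusted p = 0.049). It was the single call among 6 tested members of the flavonoid and phenylpropanoid list, of which CHI (AT2G43570) is a chitinase. TBL37, a wall acetylation gene, fell by 0.67 (SE 0.13, adjusted p = 0.0243, 1 of 25 pectin and cellulose genes). UGT74D1 and UGT87A2 kept their calls in all 12 fits. UGT76C2 was called only without clean-air plant 1 or high-exposure plant 1 and was −1.45 without clean-air plant 3. HCT was called only without clean-air plant 1, and MSRB9 only without 1 of the high-exposure plants. IAGLU lost its call without clean-air plant 1 or 2 or outside plant 2 or 3, and TBL37 without any 1 clean-air plant or outside plant 1 or 3. None of IAGLU, MSRB9, HCT, TBL37 and UGT76C2 was called with spike-in scaling.

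Many lists held no call. Beside the 3.04% called among all tested probe sets, the absence of a call in lists this short says nothing about the list as a whole. Most loci of these lists were not tested. Tested were 7 of 42 for the clock, 9 of 60 for light-harvesting and photosystems and 13 of 236 for cytochrome P450. None was made among 7 members of the clock list, of which CCR2 is a lignin-pathway enzyme that shares its symbol with a clock gene, 9 light-harvesting and photosystem genes (PPDK, taken in by its symbol, is none), 5 Calvin cycle genes or 5 genes of photorespiration, whose medians were 0.11, −0.04, −0.17 and −0.20. TPI, a triose phosphate isomerase of the Calvin cycle list, read 13.56, 13.66 and 13.66 outside and 13.31, 13.31 and 13.29 in clean air, separate groups but a difference of −0.32 ± 0.09 (adjusted p = 0.0771). Of 10 tested genes of formaldehyde and one-carbon metabolism none was called, and their differences ran from −0.29 (5-FCL) to 0.32 (AT1G66330). No call fell among 5 genes of the unfolded protein response (median −0.45), 8 low-oxygen genes, 13 cytochrome P450 genes or 7 glutathione transferases. None fell among 13 peptidases and inhibitors, 5 peroxidases and germins or 5 members of the bHLH list, of which PIFI is no bHLH factor. DER1, of protein export from the endoplasmic reticulum, differed by −0.47 ± 0.14 (adjusted p = 0.0991) and GSTU27, a glutathione transferase, by 0.82 ± 0.21 (adjusted p = 0.0607).

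Some uncalled genes differed widely between plants of a group. SWEET13, a sucrose exporter, read 5.16, 7.58 and 3.23 outside and 7.62, 7.62 and 9.21 in clean air, 2.82 ± 0.85 higher on average (adjusted p = 0.0982). Outside plants spread over more than the difference between the means, and SWEET13 was called without outside plant 2, at 3.95, and differed by 1.78 without outside plant 3. HIS1-3, a drought-inducible linker histone, read 5.32, 7.77 and 9.57 on the clean-air arrays. The 3 tested iron genes differed by 1.04 to 1.29, and none was called. Of the simulated 2-fold changes in this comparison 56 of 100 were recovered, and of simulated log2 changes of 2 there were 96 of 100. The changes were placed only in probe sets of middle and high mean level, with independent normal noise and no floor. The rates therefore do not apply to genes near 4. An absent call does not show an absent change.

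The values of the same genes in plants exposed to formaldehyde stand beside these, with the caution that all 3 comparisons share the outside arrays. Against outside, 4919 probe sets were called at low exposure (35.5%) and 7646 at high exposure (55.1%). The 3' minus 5' signal was 1.42 to 1.50 at low and 1.41 to 1.83 at high exposure, beside 1.08 to 1.15 outside. The bioC control read 8.63 to 8.85 at low and 7.10 to 7.49 at high exposure, beside 6.80 to 7.21 outside. The part of these measures in the exposure values was not tested. RBL averaged 7.28 at low exposure and 7.57 at high exposure, above all outside arrays, and NRPA2 was 2.41 and 2.35 higher than outside. DEWAX (AT5G61590) was 1.52 and 1.35 higher, close to its difference in clean air. AT4G12490 averaged 2.53 and 2.55 and SIS 3.58 and 3.99, both below 4, where a difference from outside is only a bound. These genes were on the same side of outside in all 3 chamber groups.

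Another set stood near its clean-air level at low exposure and near or above the outside level at high exposure. EXPA16 differed from outside by −2.71 at low and −0.12 at high exposure. AT1G74360 differed by −2.81 and 1.22, AT3G26910 by −1.50 and 1.12 and WRKY6 by −1.74 and 1.24. SBT3.3 read 3.31 on each low-exposure array and 8.10, 8.61 and 8.15 at high exposure. B120 averaged 3.21 at low exposure, below 4, and was 2.40 higher than outside at high exposure. CML23 and AT4G27280 differed from this set, as both averaged above outside in every chamber group. CML23 was 1.22 higher than outside at low and 3.52 at high exposure, and AT4G27280 2.22 and 4.79.

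A few genes that were called in clean air had smaller or opposite differences from outside in a formaldehyde group. AOP1, 1.56 higher in clean air, differed by 0.01 at low and 0.03 at high exposure. APL3, 1.22 higher in clean air, differed by 0.23 and −0.86, and MYC4, 1.27 higher, by 0.20 and −1.78. BIC2 (AT3G44450) differed by 0.86 and −0.08. UGT76C2, lower in clean air, differed by 0.13 at low exposure and by −1.85 at high exposure, the latter near its clean-air difference. Differences between the chamber groups themselves were not tested here.

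**Figure D5:**
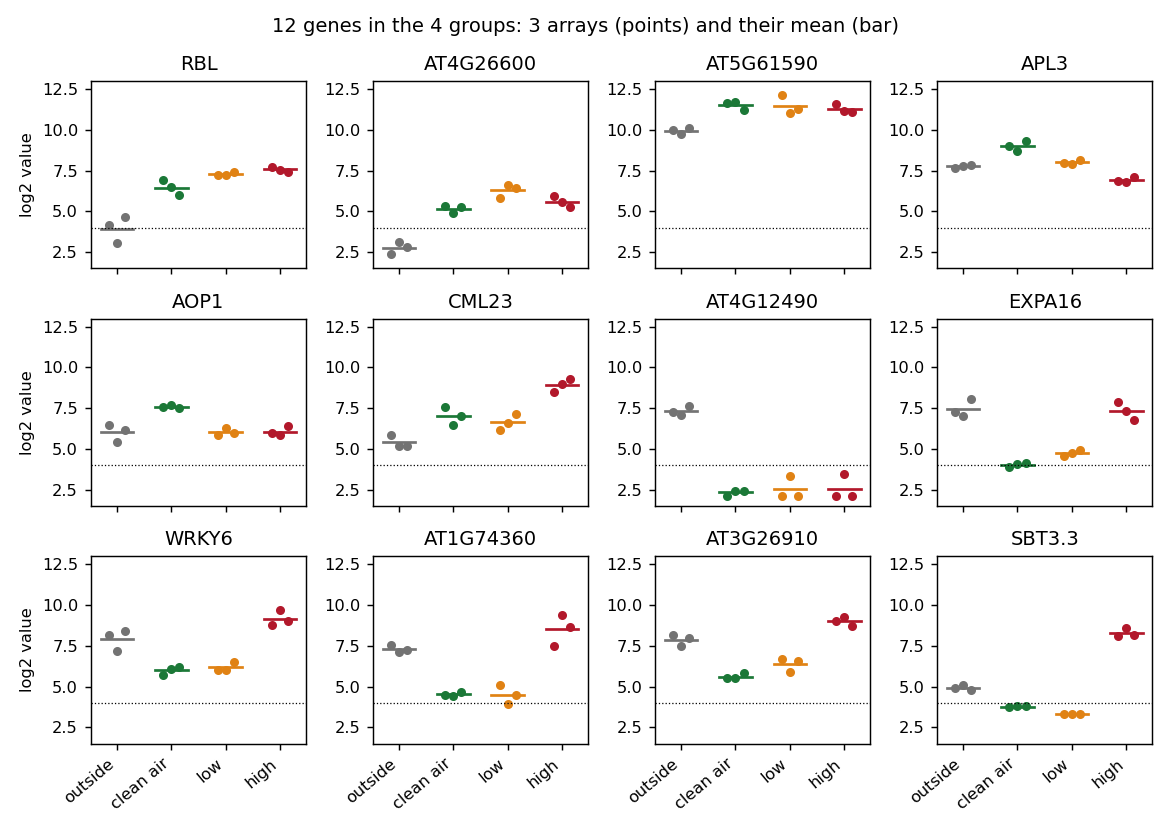
Levels (log2 GCRMA value, y axis) of 12 genes, picked with their values in view, in the 4 groups (x axis), with 3 arrays as points and their mean as a bar, and the level 4 dotted. RBL and AT4G12490 lie on the same side of outside in every chamber group, while EXPA16 reads 7.87, 7.34 and 6.77 at high exposure, near its outside values, and AOP1 reads 7.51 to 7.67 in clean air alone.

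Over all 12 arrays the genes with a pattern most like AT3G06530, the largest rise of the ranking, were AT3G21300 (Pearson r = 0.980), AT2G34357 (0.979) and AT1G13030 (0.973). None of them was called in clean air against outside (adjusted p = 0.0726, 0.075 and 0.12). Most like SIS were AT5G59070 (0.957), AT5G52390 (0.947) and AT3G53960 (0.935), and all 3 were called as falls (adjusted p = 0.0157, 0.0146 and 0.0262). AT5G59070 and AT5G52390 read 2.20 and 2.17 on 2 clean-air arrays, near the lowest value of the data, and differed by −1.81 and −2.25 with values below 4 raised to 4. AT3G53960 differed by −1.46 and was not called with spike-in scaling. The calls of all 3 were lost without clean-air plant 1 or without clean-air plant 2, those of AT5G52390 and AT3G53960 also without outside plant 2 and that of AT3G53960 also without outside plant 3. The 12 arrays share their groups, so these likenesses describe the 4 group levels as much as single plants.

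At the threshold itself, AT1G72920, AT5G09460 and AT2G40430 were the named genes just inside (adjusted p = 0.0496), and AT4G32680 was just outside (−0.58, adjusted p = 0.0501). AT5G09460 was 1.05 higher and AT2G40430, a nucleolar protein of the ribosome list, 0.73 higher. AT2G40430 was not called with spike-in scaling, and when 1 array was left out it was called only without high-exposure plant 1 or outside plant 3.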

How the data were processed

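Total RNA of each leaf sample was labelled with biotin and hybridised to the Affymetrix ATH1 array, 1 array per plant. What the authors deposited is 1 log2 value per probe set and array, made with GCRMA per the submitters' processing notes. Neither its version nor its options are named in the sources used here. The log2 scale was read from the values, which run from 2.11 to 16.1. Of 22810 probe sets 64 controls were left out, and 13874 of the other 22746 passed the filter. All 12 arrays were fitted in 1 model with a term per group in limma 3.58.1 under R 4.3.3 (lmFit, eBayes with trend), with Benjamini-Hochberg adjustment over all tested probe sets. No arrays held identical values, and scan dates were not used here, so batches could not be examined. The number of arrays limits the precision. On simulated data with 200 changed probe sets and independent normal noise there were 9 false calls.

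The array's annotation table lists 14016 probe sets, 13513 with 1 gene (13436 matched by gene identifier to RefSeq's TAIR10.1) and 503 with several; only single-gene probe sets were named, 7480 of those tested and 240 of those called. The rule for names takes the 10 largest rises and falls with both group means above 4, the 5 largest each way by bound, up to 4 called or 2 uncalled members of a list described, and the 3 closest patterns. Members, rule and the 61 lists were chosen with earlier results of these data known. The list of 96 ribosome loci and 15 further genes were chosen after values were seen. Lists have no test. Plots used matplotlib 3.10.9 under Python 3.11.15.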

Additional observations from a re-analysis of the deposited data

How the results depend on the processing

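Calls, rises, falls and calls of at least 2-fold were 422, 236, 186 and 263 as reported. They were 103, 40, 63 and 92 with the 6 arrays alone, 1188, 689, 499 and 466 with array weights, and 186, 100, 86 and 107 with no filter on low values. With spike-in scaling they were 266, 182, 84 and 227. Leaving out 1 array gave 65 to 528 calls, 27 to 303 rises, 38 to 225 falls and 61 to 301 of at least 2-fold. Median centring, quantile normalization, no trend, a stricter filter and values below 4 raised to 4 gave 406 to 467 calls. Rises outnumbered falls as reported, but falls outnumbered rises with the 6 arrays alone (40 and 63) and without clean-air replicate 1 (36 and 52), clean-air replicate 2 (27 and 38) or outside replicate 2 (73 and 89). The uncalled TRY, GID1C, AUR1, AT1G11860, PDF1.2b, SBPASE, IAA29 and SWEET11 changed sign in at least 1 setting, and no called named gene did. As the groups of every called probe set do not overlap, leaving out 1 array could not turn their sign. The difference itself is the same with the 6 arrays alone, no filter or no trend. Nothing is therefore read from the constant signs. Causes were not tested. Of the calls, 91 were shared with the 6 arrays alone and 63 with the fit without clean-air plant 2. With the replicate number as a block there were 346 calls (189 rises, 157 falls, 234 of at least 2-fold). Each plant's deviations from its group mean were also correlated between outside and clean air. Same-numbered plants gave −0.01, −0.33 and −0.24 and differently numbered plants −0.17 to 0.33. The numbers showed no pairing, but so few values cannot settle it. Of 87 called named probe sets, 11 were called under all 22 alternatives and 76 lost the call at least once. Signals near 4 limit the falls, which are bounds there.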

Other observations

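Neighbouring genes were both called in 3 of 2230 tested pairs of adjacent genes in the TAIR10.1 order. Of 7480 tested single-gene probe sets 240 were called. Whether 3 pairs are more than independent calls would give was not tested, so nothing is read from the count. EXPA16 and RBL, which lie next to each other, moved in opposite directions (−3.41 and 2.52). AT5G59080 and AT5G59070 both fell (−1.17, and −1.81 with values below 4 raised to 4), and AT5G64670 and AT5G64680 both rose (0.89 and 1.11). RHF1A, a RING-type ubiquitin ligase, fell by 1.14 (SE 0.26, adjusted p = 0.0441), and AT4G39830, of the ascorbate oxidase family, fell by 3.04 (SE 0.50, adjusted p = 0.0141), with a difference of −2.75 after values below 4 were raised to 4; both were picked with their values in view. The call of AT4G39830 was lost without clean-air plant 1 or 2, and RHF1A was not called with spike-in scaling and when 1 array was left out was called only without high-exposure plant 1 or low-exposure plant 2 or 3.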
